A study of Homo sapiens with 16 samples.

Results

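The expression of 52 genes of the transforming growth factor beta (TGF-β) and bone morphogenetic protein (BMP) pathway was followed while T24 bladder cancer cells acquired gemcitabine resistance. The members were chosen by gene symbol, as ligands, proteins that hold or block ligands, receptors, SMAD proteins with their regulators, and the ID genes. Earlier results of these data were known when they were chosen. All 52 were found among the 39007 gene symbols of the expression table. T24 is an established human urothelial carcinoma cell line, and the GRC1 cell line was derived from it by repeated rounds of exposure to gemcitabine, a nucleoside analogue that blocks DNA synthesis. RNA was sequenced from the parental phase (P0, T24 cells that had not been selected) and from an early (P3), an intermediate (P7) and a late (P15) phase, where the number is that of the selection round, with 4 libraries each and 16 in all. Cells of every phase were grown in the same serum-supplemented medium. The titles of all 16 libraries carry the tag NT, which the methods do not explain. The methods also do not say whether gemcitabine was present when RNA was taken. Expression was followed in 1 derived line. None of the 16 libraries comes from T24 cells kept in culture without the drug over the same time. Selection by the drug and time in culture therefore cannot be told apart. The sources state no processing batch, and some of the S numbers in the titles recur between phases. Whether processing differed between phases was not tested. The labels do not say that the libraries of a phase came from separate cultures, so p-values measure the spread between libraries, which may be technical.

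Ligands of the TGF-β family are secreted as dimers and bind pairs of type I and type II receptor kinases at the cell surface. TGF-β and activin receptors phosphorylate SMAD2 and SMAD3, whereas BMP receptors phosphorylate SMAD1, SMAD5 and SMAD9, and either set enters the nucleus with SMAD4. TGF-β itself is stored in the matrix in a latent form by latent TGF-β binding proteins, BMPs are blocked outside the cell by antagonists such as noggin, and SMAD6, SMAD7, BAMBI and the SMURF ligases restrain the signal inside the cell or at its membrane. In bladder and other carcinomas the TGF-β arm is known for slowing epithelial growth early and for promoting a mesenchymal state and invasion later. None of these proteins, and no phosphorylation, was measured here: the data are transcript levels.

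Expression is given as log2(CPM + 1), where CPM is the count of a gene scaled to a common library total, and library values are listed in the order of replicates 1 to 4. The libraries held an estimated 33.6 to 50.3 M counts, so that 1 count was worth 0.0199 to 0.0298 CPM and 3 counts, taken as the limit of detection, 0.06 to 0.089 CPM. Pearson correlations across genes between libraries of a phase were 0.9965 to 0.9984. The markers of the epithelial label were mostly at lower levels in P15 than in P0. KRT7 was at 9.90 ± 0.06 (mean ± SD, n = 4) in P0 and 3.64 ± 0.07 in P15, KRT8 at 9.22 and 6.16, KRT19 at 6.43 and 0.02 and EPCAM at 2.68 and 0.86. KRT18 was the exception, at 8.88 and 9.31, and CDH1, the gene of E-cadherin, stayed at or near 0 in every phase. The 6 epithelial markers summed to 2070 to 2150 CPM in P0 and 673 to 751 CPM in P15. The 6 urothelial markers summed to 95.7 to 103 CPM in P0 and 18.4 to 21.9 CPM in P15. Of these, PPARG was at 5.98 and 4.15 in the same phases and GATA3 at 5.21 and 1.28. The uroplakins UPK1B and UPK3A were at or near 0 throughout, UPK2 reached a mean of 0.87 at most, and UPK1A had means of 0.10, 0.34, 0.67 and 1.57 from P0 to P15. Among leukocyte markers PTPRC and CD3E were at or near 0, and the summed level of the list was carried by LAPTM5 and CD14, at 84.0 to 96.4 CPM in P0 and 0.592 to 0.732 CPM in P15. Of 7 fibroblast markers, summing to 7.08 to 8.34 CPM in P0 and 46.6 to 51.7 CPM in P15, COL1A1 and COL3A1 made up most of the sum in P15. DCN was at 0 in all libraries but replicate 3 of P3, and LUM was at most 0.26 in all others. That library stood apart on this list, with COL3A1 at 1.61, COL1A2 at 0.70, LUM at 0.57 and DCN at 0.20, where the other P3 libraries reached at most 0.08 for these genes. Without it, 8 members were differentially expressed in P3 against P0 and 7 in P7 against P3, the same genes as with it. The 4 endothelial markers summed to at most 7.95 CPM in any library. The part of these shifts in the results was not tested. In bulk RNA a lower share of cells with a transcript and less of it per cell cannot be told apart.

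Of the 52 members, 47 averaged more than 1 CPM across all libraries and were tested among 13249 genes. INHBE, BMP7, GREM1, CHRD and ID4 were below this level and are described by their values. BMP8B, BMPR1B and BMP6 passed the filter only through their level in P15. The means of BMP8B and BMPR1B in the other phases were at most 0.449 and 0.978 CPM. BMP6 was at 0.263, 1.04 and 0.589 CPM in P0, P3 and P7 and at 35.0 CPM in P15. The p-values of these genes for P15 therefore come from values that also selected them for testing. A gene is called differentially expressed where the Benjamini-Hochberg adjusted p-value from limma, a linear model with moderated variances fitted to all tested genes, was below 0.05 and the change was at least 2-fold on the log2(CPM + 1) scale, which understates the change of genes of low level. In P3, 8 of the 47 members (17.0%) were differentially expressed against P0, 4 higher and 4 lower, where 4.46% of all tested genes were, 1.95% higher and 2.51% lower. In P7 there were 3 (6.38%), where 3.37% of all tested genes were. In P15 there were 18 (38.3%), 12 higher and 6 lower, where 23.6% of all tested genes were, 12.1% higher and 11.4% lower. Between neighbouring phases, 7 members (14.9%) differed between P7 and P3 against a background of 1.83%, and 16 (34.0%) between P15 and P7 against 25.5%. The comparisons with P0 share the P0 libraries. By adjusted p-value alone, 42 of 47 members passed in P15 against P0, a share of 89.4% beside 86.2% of all tested genes. The median log2 fold change of the members from P0 to P15 was 0.02, against 0.04 for all tested genes, and the median of its absolute value 0.83, against 0.51. Altogether 24 members were differentially expressed in at least 1 of the 5 comparisons and 23 in none. The matching share of all tested genes was not counted, so these numbers have no background. In P15 against P7 alone it was 25.5%. Requiring 1 CPM in all 16 libraries left 38 members and 11 calls between P0 and P15, where 18.4% of the 11523 genes then tested were called.

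**Figure D1:**
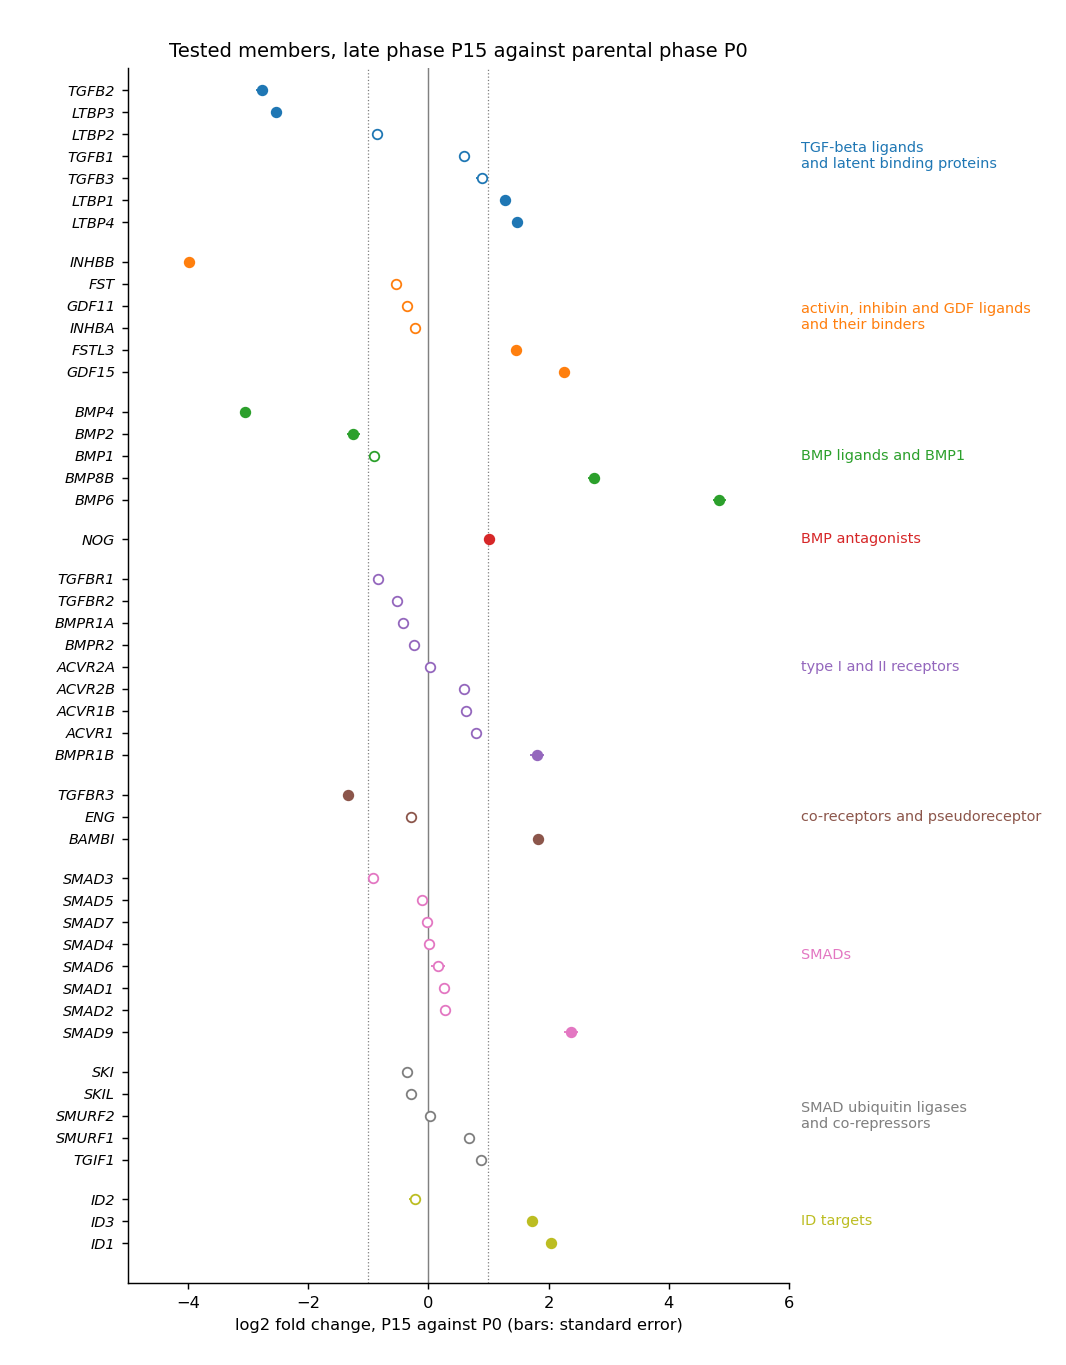
Log2 fold change of each of the 47 tested members between P0 and P15 on the log2(CPM + 1) scale, ordered by role, with bars of 1 standard error from limma (4 libraries per phase). Filled points mark the 18 differentially expressed members, from INHBB at -3.98 to BMP6 at 4.84, open points the others, and dotted lines the 2-fold limit.

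The TGF-β ligands diverged. TGFB2 was lower at each later phase and TGFB1 and TGFB3 reached their highest levels in P15. TGFB2 (chr1:218345336-218444619, GRCh38, plus strand) stood at 4.39, 4.60, 4.28 and 4.43 in P0, then 3.94, 4.08, 3.93 and 3.76 in P3, then 2.77, 2.97, 2.79 and 2.99 in P7 and last 1.70, 1.46, 1.70 and 1.75 in P15. These 4 sets of values did not overlap, and P0 was highest. TGFB2 fell by 1.54 (standard error 0.09, limma adjusted p = 1.4e-13) from P0 to P7 and by 2.77 (standard error 0.09, limma adjusted p = 1.3e-19) from P0 to P15. The exons of TGFB2 share 34.2% of their bases with the annotated genes TGFB2-AS1, on the opposite strand, and TGFB2-OT1, and the strand setting of the counting is not given in the sources used here, so reads of these genes cannot be told apart there.

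TGFB1 (chr19:41301587-41353922, minus strand), the best known ligand of the family in carcinomas, was at 6.98, 7.14, 7.01 and 7.01 in P0, then 7.03, 7.20, 7.19 and 6.99 in P3, then 7.33, 7.20, 7.43 and 7.37 in P7 and last 7.51, 7.73, 7.58 and 7.71 in P15. All P15 values lay above those of the other phases. Its rise from P0 to P15 was 0.60 (standard error 0.06, limma adjusted p = 3.7e-10), which passed the adjusted p-value but not the 2-fold limit. TGFB3 was at 1.16, 1.23, 0.90 and 1.10 in P0, then 1.11, 1.00, 1.25 and 1.05 in P3, then 1.32, 1.14, 1.00 and 0.90 in P7 and last 2.03, 1.94, 2.03 and 1.99 in P15. The values of P0, P3 and P7 overlapped and the P15 values stood above all of them, with a rise of 0.90 (standard error 0.10, limma adjusted p = 1e-08) from P0, below the 2-fold limit.

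The latent TGF-β binding proteins, which attach the latent complex to the matrix, moved in different directions. LTBP1 was at 3.07, 2.96, 3.16 and 3.21 in P0, then 3.19, 2.89, 3.02 and 2.85 in P3, then 3.59, 3.49, 3.44 and 3.42 in P7 and last 4.45, 4.37, 4.29 and 4.43 in P15. P15 was highest, and the rise from P0 was 1.28 (standard error 0.08, limma adjusted p = 7.2e-14). LTBP4 was at 6.01, 6.15, 5.82 and 6.02 in P0, then 5.09, 5.41, 5.27 and 5.20 in P3, then 5.70, 5.55, 5.62 and 5.65 in P7 and last 7.40, 7.59, 7.51 and 7.43 in P15. It was lowest in P3 and highest in P15, with no overlap between P15 and any other phase, and rose by 1.48 (standard error 0.06, limma adjusted p = 7.8e-17) from P0 to P15 and by 1.85 (standard error 0.06, limma adjusted p = 7.6e-19) from P7 to P15.

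LTBP3 alternated. Its values were 6.62, 6.81, 6.41 and 6.63 in P0, then 5.01, 4.97, 5.07 and 4.97 in P3, then 6.40, 6.27, 6.38 and 6.43 in P7 and last 3.97, 4.17, 4.05 and 4.10 in P15. P0 and P7 overlapped at the high end, P3 lay below both and P15 below all. LTBP3 fell by 1.61 (standard error 0.06, limma adjusted p = 7.1e-17) from P0 to P3, rose by 1.36 (standard error 0.06, limma adjusted p = 5.1e-15) from P3 to P7 and fell by 2.30 (standard error 0.06, limma adjusted p = 5.6e-21) from P7 to P15. LTBP2, a relative of the family that binds fibrillin rather than TGF-β, was at 8.04, 7.99, 7.94 and 8.04 in P0, then 6.89, 6.88, 6.90 and 6.95 in P3, then 7.16, 7.16, 7.15 and 7.23 in P7 and last 7.09, 7.15, 7.27 and 7.10 in P15. All later libraries were below those of P0, and the fall in P3 was 1.10 (standard error 0.04, limma adjusted p = 7.3e-18). In P15 LTBP2 differed from P0 by -0.85 (standard error 0.04, limma adjusted p = 1.2e-16), below the 2-fold limit.

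**Figure D2:**
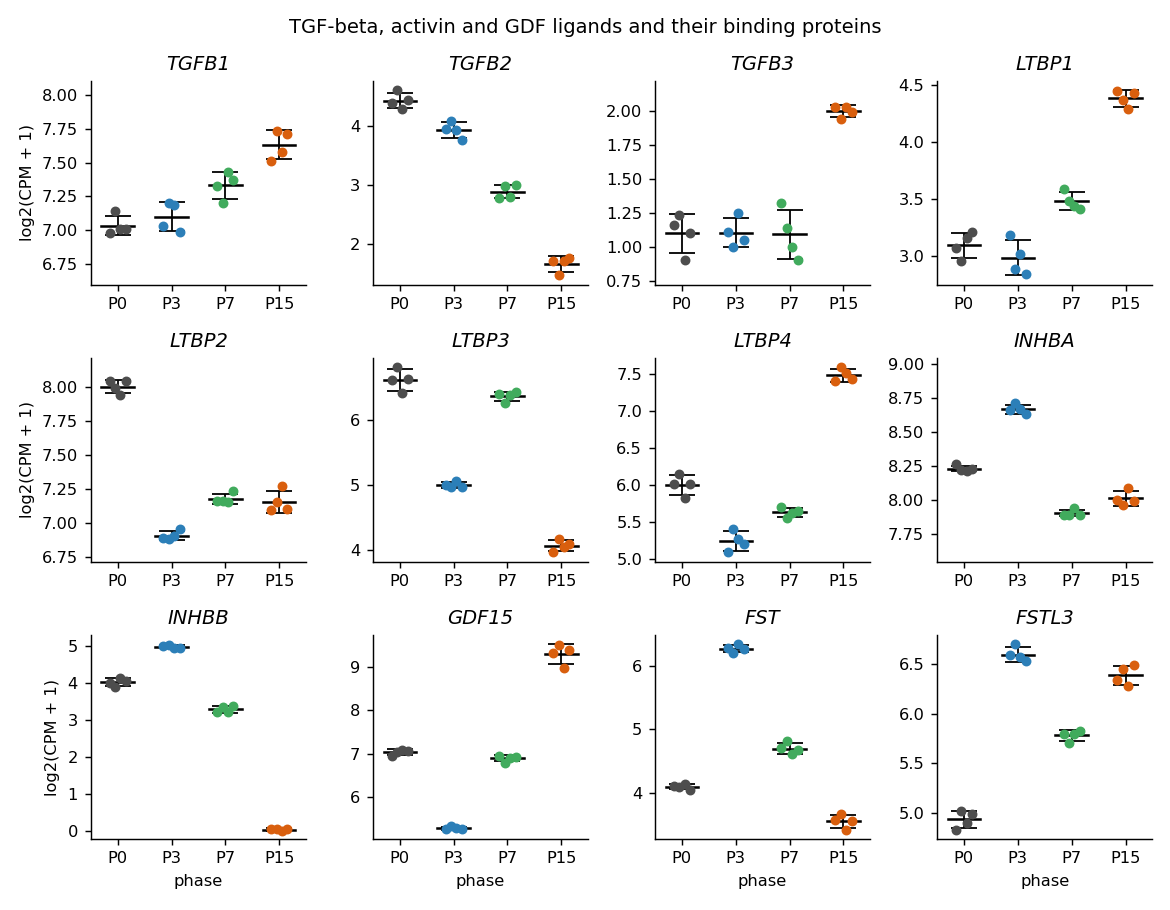
Expression as log2(CPM + 1) of TGF-β and activin ligands and of proteins that hold them, by phase. Each point is a library, with a horizontal line at the mean and bars of 1 SD (n = 4), and each panel has its own axis, which need not start at 0. TGFB2 and INHBB are lowest in P15, at means of 1.65 and 0.05, and GDF15 is highest there, at 9.30.

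Of 6 tested activin and GDF ligands and binders, 3 were differentially expressed in P3 against P0, 3 in P15 against P0, 3 in P7 against P3 and 3 in P15 against P7, beside backgrounds of 4.46%, 23.6%, 1.83% and 25.5%. None was in P7 against P0, where the background was 3.37% and 5 of the 6 passed the adjusted p-value from limma alone. INHBA, the βA subunit of activin A, was per length of exon the more abundant subunit in every phase and stayed within 2-fold, with its highest mean, 8.67 ± 0.03, in P3, beside 8.23 ± 0.02 in P0, and its lowest, 7.90 ± 0.03, in P7, beside 8.01 ± 0.06 in P15. INHBB, the βB subunit of activin B (chr2:120346136-120351803, plus strand), was at 4.00, 3.89, 4.14 and 4.07 in P0, then 5.00, 5.04, 4.96 and 4.95 in P3, then 3.21, 3.36, 3.22 and 3.37 in P7 and last 0.07, 0.07, 0.00 and 0.06 in P15. P3 was highest, and the P15 libraries all lay at or under the limit of 3 counts. The fitted difference between P15 and P0 was -3.98 (standard error 0.07, limma adjusted p = 1e-24), and no linear fold is given because P15 is at the floor. From P3 to P7 INHBB fell by 1.70 (standard error 0.07, limma adjusted p = 9.1e-16).

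FST, the gene of follistatin, which binds and neutralizes activins, was at 4.12, 4.10, 4.14 and 4.05 in P0, then 6.28, 6.19, 6.33 and 6.26 in P3, then 4.70, 4.81, 4.61 and 4.67 in P7 and last 3.58, 3.68, 3.43 and 3.56 in P15. It was highest in P3, with no overlap with another phase, and lowest in P15. The rise from P0 to P3 was 2.16 (standard error 0.06, limma adjusted p = 4.4e-20) and the fall from P3 to P7 was 1.57 (standard error 0.06, limma adjusted p = 7.1e-17). FSTL3, a relative of follistatin with the same activity toward activins, was at 4.83, 5.02, 4.90 and 4.99 in P0, then 6.59, 6.70, 6.57 and 6.53 in P3, then 5.80, 5.70, 5.80 and 5.83 in P7 and last 6.34, 6.45, 6.28 and 6.49 in P15. All later libraries were above P0, with rises of 1.66 (standard error 0.05, limma adjusted p = 1.1e-18) in P3 and 1.46 (standard error 0.05, limma adjusted p = 1.3e-18) in P15.

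GDF15, a divergent ligand of the family that is known as a stress-induced cytokine, was at 6.95, 7.03, 7.09 and 7.07 in P0, then 5.26, 5.32, 5.27 and 5.25 in P3, then 6.95, 6.79, 6.89 and 6.93 in P7 and last 9.32, 9.50, 8.98 and 9.39 in P15. P3 was lowest, P0 and P7 overlapped, and P15 was highest. GDF15 (chr19:18374731-18389176, plus strand) fell by 1.76 (standard error 0.07, limma adjusted p = 8.7e-17) from P0 to P3, rose by 1.62 (standard error 0.07, limma adjusted p = 1.4e-15) from P3 to P7 and rose by 2.41 (standard error 0.07, limma adjusted p = 1.6e-20) from P7 to P15. Between P0 and P7 the difference of -0.15 (standard error 0.07, limma adjusted p = 0.065) did not pass. GDF11 had its highest mean in P0, at 4.63 ± 0.08, and its lowest in P3, at 3.78 ± 0.09, within 2-fold. INHBE, below the filter, was at 0.21, 0.29, 0.37 and 0.42 in P0, then 0.00, 0.17, 0.03 and 0.16 in P3, then 0.14, 0.14, 0.23 and 0.21 in P7 and last 1.34, 1.22, 1.08 and 1.22 in P15, highest in P15.

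Among the BMP ligands, BMP2 and BMP4 were low in P15 where BMP6, BMP7 and BMP8B were high. BMP4 (chr14:53949736-53958761, minus strand) was at 3.65, 3.79, 3.59 and 3.58 in P0, then 3.59, 3.51, 3.49 and 3.44 in P3, then 3.73, 3.66, 3.74 and 3.83 in P7 and last 0.54, 0.66, 0.64 and 0.57 in P15. The first 3 phases lay close together and P15 stood below all of them, with a fall of 3.05 (standard error 0.07, limma adjusted p = 3.5e-22) from P0 and of 3.14 (standard error 0.07, limma adjusted p = 1.9e-22) from P7. Of its exon bases, 16.3% are shared with an annotated gene without a symbol on the opposite strand. BMP2 was at 2.02, 1.93, 2.15 and 2.16 in P0, then 1.89, 1.83, 1.77 and 1.72 in P3, then 1.73, 1.53, 1.38 and 1.48 in P7 and last 0.81, 0.95, 0.47 and 1.01 in P15. P15 was lowest, and the fall from P0 was 1.25 (standard error 0.11, limma adjusted p = 1e-10). BMP1, a metalloprotease that processes procollagens and chordin and is no ligand, was at 5.25 ± 0.10 in P0 and 4.36 ± 0.12 in P15 and fell by 0.90 (standard error 0.06, limma adjusted p = 5.2e-13), below the 2-fold limit.

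BMP6 (chr6:7726099-7881728, plus strand), a ligand known from bone and from the control of iron through hepcidin, was at 0.28, 0.04, 0.30 and 0.66 in P0, then 1.04, 0.81, 1.18 and 1.05 in P3, then 0.61, 0.64, 0.68 and 0.74 in P7 and last 5.25, 5.26, 4.94 and 5.20 in P15. In the first 3 phases every library was at or below 1.18, and in P15 every library was at or above 4.94. BMP6 rose by 4.84 (standard error 0.11, limma adjusted p = 3.5e-22) from P0 to P15 and by 4.50 (standard error 0.11, limma adjusted p = 1.5e-21) from P7 to P15. It passed the filter only through P15, so these p-values come from values that selected it. Of its exon bases, 5.6% are shared with TXNDC5 and its readthrough transcript on the opposite strand. BMP8B was at 0.66, 0.29, 0.66 and 0.50 in P0, then 0.48, 0.26, 0.47 and 0.59 in P3, then 0.34, 0.57, 0.57 and 0.49 in P7 and last 3.24, 3.28, 3.35 and 3.25 in P15. The first 3 phases overlapped and P15 stood apart, with a rise of 2.75 (standard error 0.10, limma adjusted p = 3.6e-18) from P0. As BMP8B was tested only through its level in P15, this p-value is no independent support. BMP8B has a near-identical paralog, BMP8A, whose mean was 0.55 in P15 and at most 0.08 in the other phases, and the division of reads between them is uncertain. BMP7, below the filter, was at 0.14, 0.00, 0.00 and 0.08 in P0, then 0.00, 0.00, 0.00 and 0.16 in P3, then 0.07, 0.06, 0.08 and 0.00 in P7 and last 2.04, 1.82, 2.08 and 1.73 in P15, so that all P15 libraries were above all others. With no filter on level the P15 and P0 means of BMP7 differed by 1.86 (standard error 0.07, limma adjusted p = 6.3e-13).

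Of the secreted BMP antagonists, NOG, the gene of noggin, was expressed throughout and CHRD stayed at or below 0.34 in every library before P15. NOG (chr17:56593699-56595611, plus strand) was at 4.33, 4.29, 4.40 and 4.30 in P0, then 4.21, 4.27, 4.21 and 4.14 in P3, then 3.80, 3.55, 3.91 and 3.87 in P7 and last 5.14, 5.34, 5.45 and 5.45 in P15. P7 was lowest and P15 highest, and P15 overlapped with no other phase. NOG rose by 1.01 (standard error 0.07, limma adjusted p = 2.7e-12) from P0 to P15, just past the 2-fold limit, and the change was 0.98 without replicate 3 of P15 and 0.98 without replicate 4. From P7 to P15 the rise was 1.56 (standard error 0.07, limma adjusted p = 4.3e-16). CHRD, the gene of chordin, was at 0.00, 0.00, 0.08 and 0.00 in P0, then 0.28, 0.26, 0.07 and 0.16 in P3, then 0.34, 0.00, 0.00 and 0.00 in P7 and last 1.81, 2.17, 1.67 and 2.13 in P15. Its P15 and P0 means differed by 1.92 (standard error 0.11, limma adjusted p = 5.8e-11) with no filter on level. GREM1, the gene of gremlin 1, reached at most 0.14 in any library.

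Of the 9 type I and type II receptors, all tested, BMPR1B alone was differentially expressed against P0 in P15, which is 11.1% beside 23.6% of all tested genes, and none was in P3 or P7. By adjusted p-value 8 of 9 passed in P15, or 88.9%, which is close to the 86.2% of all tested genes. BMPR1B, a type I receptor for BMPs, was at 0.66, 0.58, 0.49 and 0.59 in P0, then 1.22, 1.20, 0.66 and 0.77 in P3, then 0.07, 0.21, 0.16 and 0.39 in P7 and last 2.34, 2.49, 2.48 and 2.25 in P15. P15 was highest and P7 lowest. BMPR1B rose by 1.81 (standard error 0.12, limma adjusted p = 4.6e-13) from P0 and by 2.18 (standard error 0.12, limma adjusted p = 1e-14) from P7. Its level in P15 alone brought it past the filter, so these p-values come from values that selected it. BMPR1A, the other classical type I receptor for BMPs, fell by 0.42 (standard error 0.05, limma adjusted p = 6.7e-09) from 5.92 ± 0.03 in P0 to 5.50 ± 0.05 in P15, below the 2-fold limit.

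The TGF-β receptors both had lower levels in P15. TGFBR1 was at 5.06 ± 0.07 in P0 and 4.23 ± 0.08 in P15, a fall of 0.83 (standard error 0.05, limma adjusted p = 6.4e-14). TGFBR2, the type II receptor, was at 7.91 ± 0.02 and 7.39 ± 0.03, a fall of 0.52 (standard error 0.03, limma adjusted p = 2.3e-14). Both stayed under 2-fold. ACVR1 and ACVR1B, type I receptors for BMPs and for activins respectively, rose by 0.80 (standard error 0.04, limma adjusted p = 2.4e-15) and by 0.62 (standard error 0.06, limma adjusted p = 1.9e-10). Among the type II receptors, ACVR2B rose by 0.59 (standard error 0.08, limma adjusted p = 2.4e-07) and BMPR2 fell by 0.24 (standard error 0.06, limma adjusted p = 0.00066). ACVR2A, at 3.02 ± 0.10 in P0 and 3.03 ± 0.09 in P15, was the receptor that did not pass, with a log2 fold change of 0.02 (standard error 0.08, limma adjusted p = 0.86).

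The co-receptor TGFBR3, also called betaglycan, which presents TGF-β2 and inhibin to the signalling receptors, was at 4.52, 4.55, 4.55 and 4.58 in P0, then 4.88, 4.92, 4.85 and 4.89 in P3, then 4.78, 4.91, 4.63 and 4.68 in P7 and last 3.38, 3.12, 3.08 and 3.27 in P15. The first 3 phases lay between 4.52 and 4.92 and P15 was below them all. TGFBR3 fell by 1.34 (standard error 0.06, limma adjusted p = 1.2e-15) from P0 and by 1.54 (standard error 0.06, limma adjusted p = 6.5e-17) from P7. ENG, the gene of endoglin, was at 7.04 ± 0.03 in P0 and 6.74 ± 0.05 in P15 and fell by 0.29 (standard error 0.03, limma adjusted p = 1.2e-08), below the 2-fold limit.

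BAMBI (chr10:28677510-28682932, plus strand) encodes a pseudoreceptor that resembles a type I receptor but lacks the kinase domain. It was at 1.64, 1.57, 1.46 and 1.56 in P0, then 3.26, 2.83, 3.05 and 2.99 in P3, then 2.87, 2.88, 2.77 and 2.81 in P7 and last 3.45, 3.27, 3.42 and 3.40 in P15. Every library after P0 was above every P0 library. BAMBI rose from P0 by 1.48 (standard error 0.08, limma adjusted p = 1.2e-13) in P3, by 1.27 (standard error 0.08, limma adjusted p = 2.3e-12) in P7 and by 1.83 (standard error 0.08, limma adjusted p = 2.7e-16) in P15. BAMBI was the 1 member past both thresholds in each of the 3 comparisons with P0, which share the P0 libraries. With a pseudocount of 5 in place of 1 its changes were 0.81 in P3 and 0.68 in P7, below the 2-fold limit.

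**Figure D3:**
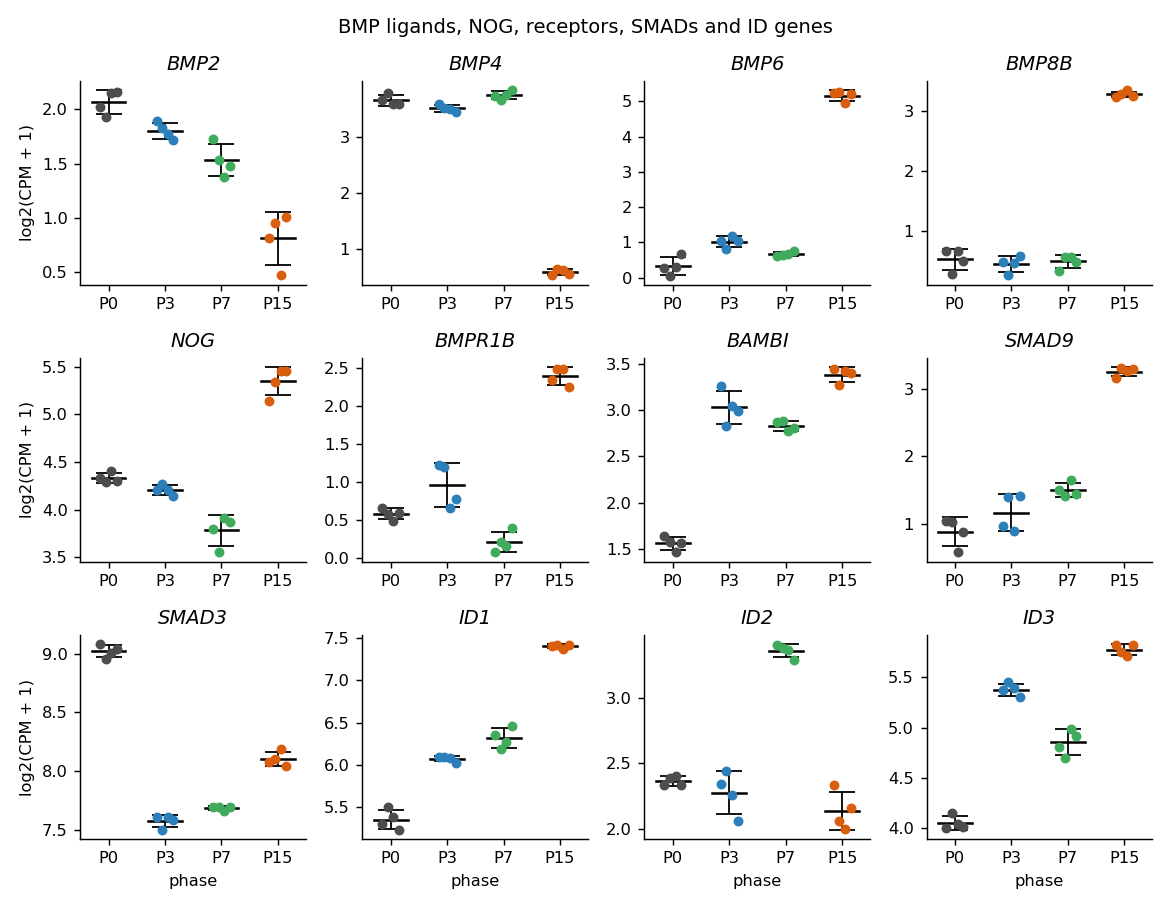
Expression as log2(CPM + 1) of BMP ligands, NOG, BMPR1B, BAMBI, SMAD3, SMAD9 and ID genes, by phase. Points are libraries, lines the means and bars 1 SD (n = 4), and each panel has its own axis, which need not start at 0. BMP6, BMP8B and SMAD9 stand apart in P15, at means of 5.16, 3.28 and 3.25, BMP4 is lowest there at 0.60, and SMAD3 is highest in P0 at 9.02.

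Among the 8 SMAD genes, SMAD3 carried the change early and SMAD9 late. SMAD3 (chr15:67063763-67195173, plus strand), the receptor-activated SMAD of TGF-β and activin that binds DNA directly, was at 9.08, 8.96, 9.01 and 9.04 in P0, then 7.61, 7.5, 7.61 and 7.58 in P3, then 7.69, 7.69, 7.66 and 7.69 in P7 and last 8.08, 8.10, 8.19 and 8.04 in P15. P0 was highest, P15 came next, and P3 and P7 were lowest, with no overlap between phases. SMAD3 fell by 1.45 (standard error 0.03, limma adjusted p = 9.6e-21) in P3 and by 1.34 (standard error 0.03, limma adjusted p = 6.3e-20) in P7. In P15 the fall from P0 was 0.92 (standard error 0.03, limma adjusted p = 5.6e-18), below the 2-fold limit. SMAD2 was at 6.25 ± 0.02 in P0 and 6.53 ± 0.04 in P15, and SMAD4, the common partner, at 5.70 ± 0.04 and 5.71 ± 0.09.

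SMAD9 (chr13:36844831-36920887, minus strand), the least abundant of the receptor-activated SMADs of the BMP arm, was at 1.04, 1.03, 0.58 and 0.88 in P0, then 0.97, 1.4, 0.90 and 1.41 in P3, then 1.51, 1.42, 1.65 and 1.45 in P7 and last 3.16, 3.30, 3.26 and 3.29 in P15. The P0 and P3 values overlapped and P15 was above all others. SMAD9 rose by 2.37 (standard error 0.12, limma adjusted p = 2e-15) from P0 to P15 and by 1.74 (standard error 0.12, limma adjusted p = 8.5e-13) from P7 to P15. SMAD1 was at 3.98 ± 0.06 in P0, 3.44 ± 0.12 in P3 and 4.24 ± 0.14 in P15, and SMAD5 at 6.62 ± 0.05, 6.75 ± 0.09 and 6.51 ± 0.04. Neither reached a 2-fold change in any comparison.

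The inhibitory SMADs had their highest means in P7. SMAD6, which acts mainly against the BMP arm, was at 1.88, 1.89, 1.57 and 1.67 in P0, then 0.84, 0.92, 0.87 and 0.92 in P3, then 2.40, 2.14, 1.99 and 2.20 in P7 and last 1.77, 1.82, 2.21 and 1.87 in P15. P3 was lowest, with no overlap with another phase. SMAD6 rose by 1.30 (standard error 0.11, limma adjusted p = 3.5e-10) from P3 to P7, while in P15 its difference from P0 was 0.16 (standard error 0.11, limma adjusted p = 0.15). SMAD7, which acts against both arms, went from 3.81 ± 0.05 in P0 to 3.72 ± 0.04 in P3, and was at 4.67 ± 0.09 in P7 and 3.78 ± 0.05 in P15. The rise of SMAD7 from P3 to P7 was 0.95 (standard error 0.06, limma adjusted p = 1.1e-12), below the 2-fold limit.

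Of the 5 ubiquitin ligases and co-repressors, all tested, TGIF1 alone was differentially expressed, and in 1 comparison. This was P15 against P7, where 1 of 5 is not above the 25.5% of all tested genes. TGIF1, a homeodomain protein that recruits histone deacetylases to SMAD2 and SMAD3, was at 6.17, 6.27, 6.19 and 6.09 in P0, then 5.93, 6.0, 5.83 and 5.79 in P3, then 5.92, 5.94, 5.64 and 5.92 in P7 and last 7.07, 7.04, 7.06 and 7.07 in P15. The P15 values lay above all others, with a rise of 1.20 (standard error 0.06, limma adjusted p = 4.1e-16) from P7 and of 0.88 (standard error 0.06, limma adjusted p = 2.5e-13) from P0, the latter below the 2-fold limit. SMURF2, a ligase that targets SMADs and receptors for degradation, had its highest mean in P3, at 8.44 ± 0.03 against 7.71 ± 0.06 in P0, and SMURF1 in P15, at 6.32 ± 0.02 against 5.64 ± 0.07. The co-repressors SKI and SKIL fell from P0 to P15 by 0.36 (standard error 0.04, limma adjusted p = 4.3e-09) and by 0.29 (standard error 0.04, limma adjusted p = 5.5e-07). The exons of SMURF1 share 11.7% of their bases with TRRAP on the opposite strand.

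The ID genes, which encode helix-loop-helix proteins that block differentiation factors, are direct targets of the BMP SMADs in many cell types, and they did not move together. ID1 (chr20:31605283-31606515, plus strand) was at 5.30, 5.50, 5.39 and 5.24 in P0, then 6.10, 6.09, 6.08 and 6.03 in P3, then 6.35, 6.19, 6.27 and 6.46 in P7 and last 7.40, 7.41, 7.37 and 7.42 in P15. P0 was lowest, P3 lay below P7 and P15 was highest, with no overlap between phases. ID1 rose by 2.04 (standard error 0.05, limma adjusted p = 1.6e-21) from P0 to P15, and in P7 the rise was 0.96 (standard error 0.05, limma adjusted p = 5.6e-14), below the 2-fold limit. ID3 was at 4.00, 4.15, 4.04 and 4.01 in P0, then 5.37, 5.45, 5.39 and 5.30 in P3, then 4.81, 4.70, 4.99 and 4.92 in P7 and last 5.82, 5.75, 5.71 and 5.82 in P15. All later libraries were above P0, with a rise of 1.33 (standard error 0.06, limma adjusted p = 5.7e-16) in P3 and of 1.72 (standard error 0.06, limma adjusted p = 3.6e-19) in P15.

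ID2 was at 2.33, 2.39, 2.40 and 2.33 in P0, then 2.34, 2.44, 2.26 and 2.06 in P3, then 3.40, 3.38, 3.36 and 3.29 in P7 and last 2.33, 2.06, 2.00 and 2.16 in P15. P7 was highest, above every library of the other phases, and P0, P3 and P15 lay close together. ID2 rose by 1.08 (standard error 0.09, limma adjusted p = 1.7e-10) from P3 to P7 and fell by 1.22 (standard error 0.09, limma adjusted p = 1.7e-12) from P7 to P15. Against P0 the difference in P7 was 0.99 (standard error 0.09, limma adjusted p = 4.2e-10), at the 2-fold limit but not past it. The number of members differentially expressed in P7 against P0 was 5 in place of 3 without replicate 2 of P0. Among all 13249 tested genes it was 459 in place of 447. ID4, below the filter, was at 0.21, 0.15, 0.00 and 0.08 in P0, then 0.07, 0.10, 0.07 and 0.00 in P3, then 0.07, 0.06, 0.08 and 0.00 in P7 and last 2.14, 1.86, 1.78 and 1.87 in P15. Its P15 and P0 means differed by 1.80 (standard error 0.07, limma adjusted p = 5.8e-13) with no filter on level.

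The promoters of the ID genes and of SMAD6 are shown as those of known BMP targets. The 250 bases before the start site are given on the strand of the gene, from RefSeq (GRCh38.p14), in lower case. Capitals mark matches, on either strand, to the SMAD binding element CAGAC, to its palindrome GTCTAGAC and to TATAAA. The BMP-type element GGCGCC was searched as well, and no match lies in these windows.
ID1 (chr20:31605039-31605288): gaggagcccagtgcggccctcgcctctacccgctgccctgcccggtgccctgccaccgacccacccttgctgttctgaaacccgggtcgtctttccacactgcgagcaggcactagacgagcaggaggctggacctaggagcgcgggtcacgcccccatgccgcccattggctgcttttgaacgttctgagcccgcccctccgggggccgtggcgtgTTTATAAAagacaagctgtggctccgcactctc
ID2 (chr2:8681806-8682055): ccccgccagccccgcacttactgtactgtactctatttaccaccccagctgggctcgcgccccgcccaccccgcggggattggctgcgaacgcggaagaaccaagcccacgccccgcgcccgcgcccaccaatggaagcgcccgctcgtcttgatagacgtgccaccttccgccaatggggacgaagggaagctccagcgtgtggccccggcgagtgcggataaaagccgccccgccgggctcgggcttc
ID3 (chr1:23559502-23559751): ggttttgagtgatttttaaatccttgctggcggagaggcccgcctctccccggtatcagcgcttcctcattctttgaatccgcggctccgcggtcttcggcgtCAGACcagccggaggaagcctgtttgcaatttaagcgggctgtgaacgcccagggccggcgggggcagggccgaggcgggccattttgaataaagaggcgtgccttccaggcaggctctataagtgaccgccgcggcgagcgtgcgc
ID4 (chr6:19837120-19837369): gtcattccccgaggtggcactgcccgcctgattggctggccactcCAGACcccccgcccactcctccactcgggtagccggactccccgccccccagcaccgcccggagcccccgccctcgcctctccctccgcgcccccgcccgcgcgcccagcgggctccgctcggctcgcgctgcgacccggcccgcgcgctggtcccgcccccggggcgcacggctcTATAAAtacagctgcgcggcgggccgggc
SMAD6 (chr15:66701986-66702235): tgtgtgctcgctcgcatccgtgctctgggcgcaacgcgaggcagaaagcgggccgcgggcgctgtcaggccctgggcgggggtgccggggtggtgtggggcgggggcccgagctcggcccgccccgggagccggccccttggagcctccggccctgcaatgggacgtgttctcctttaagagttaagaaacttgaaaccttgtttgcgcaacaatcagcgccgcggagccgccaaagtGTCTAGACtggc
ID1 holds 2 overlapping matches to TATAAA, 1 on each strand. ID3 holds CAGAC at -147, where -1 is the base before the start, and ID4 holds CAGAC at -205 and TATAAA at -29. SMAD6 holds GTCTAGAC at -12, and ID2 none of these motifs. Of 27305 promoters of the same length, 37.9% hold CAGAC, 16% GGCGCC, 11.2% TATAAA and 0.183%, or 50, GTCTAGAC. Of the 46 members with a promoter in the table, 16 hold CAGAC, 14 GGCGCC, 8 TATAAA and 1 GTCTAGAC. These matches describe the letters of the windows and say nothing of binding.

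Per length of annotated exon, levels are given as CPM per kb (mean ± SD, n = 4), which allows only a rough comparison between genes. The length is that of all annotated exons of a gene merged, not of the transcripts expressed. It was 36.43 kb for SMAD2 and 10.01 kb for SMAD3. Bases shared with other genes, as in TGFB2, are included. The SDs do not cover these uncertainties. Among the TGF-β ligands TGFB1 was highest in every phase, at 39.9 ± 2.03 in P0 and 60.6 ± 4.42 in P15. TGFB2 was at 3.4 ± 0.333 and 0.356 ± 0.0452, and TGFB3 at 0.22 ± 0.0392 and 0.573 ± 0.0225. Thus TGFB2 was above TGFB3 in P0 and below it in P15, with differences larger than the SDs.

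The order of the BMP ligands per length also changed. BMP4 was highest in P0, at 3.75 ± 0.279 CPM per kb, above BMP2 at 0.901 ± 0.0894, BMP8B at 0.0931 ± 0.0352 and BMP6 at 0.0696 ± 0.0609. The last 2 differed by less than their SDs. In P15 BMP6 was highest at 9.24 ± 0.944, followed by BMP8B at 1.81 ± 0.0701, BMP7 at 0.516 ± 0.0815, BMP2 at 0.217 ± 0.0788 and BMP4 at 0.168 ± 0.0193. BMP2 and BMP4 differed there by less than the SD of BMP2.

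SMAD3 had the highest level per length of the 8 SMADs in every phase, at 51.9 ± 1.82 CPM per kb in P0 and 27.4 ± 1.22 in P15. In the BMP arm SMAD5 was highest, at 10.8 ± 0.357 and 9.97 ± 0.255. SMAD1 was at 2.08 ± 0.0972 and 2.53 ± 0.246, and SMAD9 at 0.144 ± 0.0439 and 1.43 ± 0.0697, so SMAD9 stayed the lowest of the 3. Of the ID genes, ID1 was highest in P15, at 136 ± 2.04 CPM per kb, above ID3 at 36.0 ± 1.38 and ID2 at 1.54 ± 0.204.

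**Figure D4:**
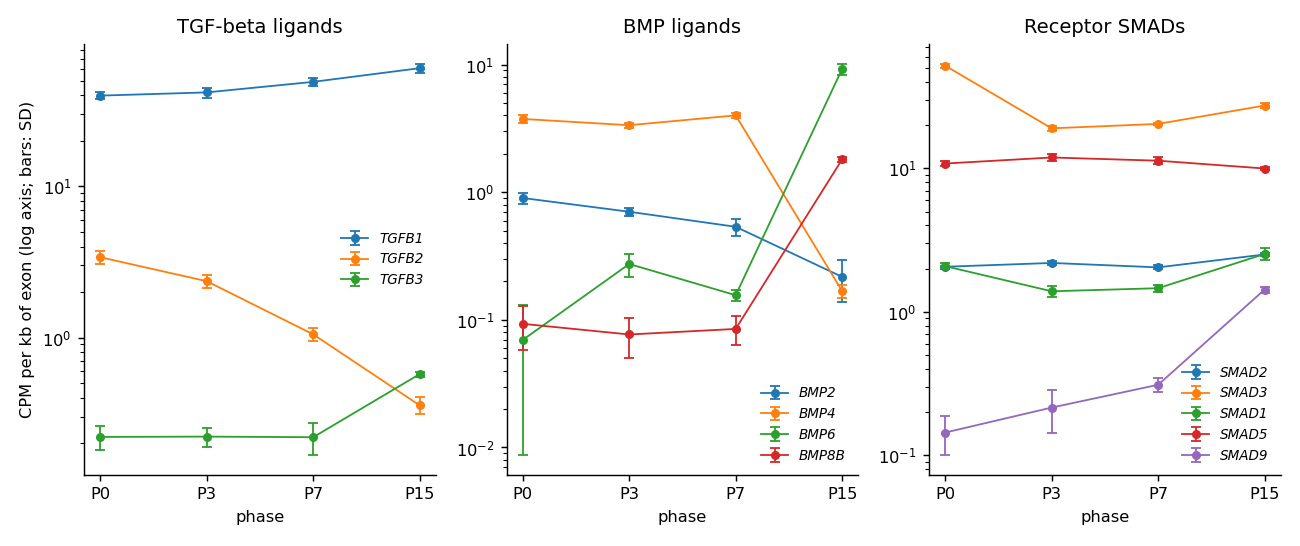
Levels per length of exon, in CPM per kb on a log axis, of TGF-β ligands, BMP ligands and receptor-activated SMADs by phase, as means with bars of 1 SD (n = 4). The length is that of all annotated exons merged, so the order of genes is approximate. TGFB2 falls from 3.40 to 0.356 and BMP4 from 3.75 to 0.168 between P0 and P15, BMP6 is at 9.24 in P15, and SMAD9 is the lowest of the SMADs in every phase.

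Other genes of the pathway were taken from lists chosen by function, with earlier results of these data known. Their shares are set beside the background as a description, and no test of a list was made. Of 20 genes known to respond to SMAD2 and SMAD3, all tested, 13 (65.0%) were differentially expressed between P0 and P15, 6 higher and 7 lower, beside the background of 23.6%, and their median log2 fold change was -0.31, against 0.04 for all tested genes. The largest falls were those of FN1, fibronectin, from a mean of 14.45 to 6.90 (log2 fold change -7.54, standard error 0.06, limma adjusted p = 3.9e-32), of TGFBI, from 6.86 to 0.70 (-6.16), and of PMEPA1, a negative regulator of the pathway, from 7.82 to 5.48 (-2.35). Among those that rose were IGFBP3, from 1.13 to 4.50 (3.37), and JUNB, from 4.69 to 6.74 (2.05). In P3, 7 of the 20 were differentially expressed against P0, and in P7 3, which is 35.0% and 15.0% beside backgrounds of 4.46% and 3.37%.

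Of 10 further genes known to respond to BMPs outside the ID and SMAD families, 7 were tested and 3 (42.9%) were differentially expressed between P0 and P15, all higher, beside 23.6% of all tested genes in either direction and 12.1% higher. These were the transcription factor genes GATA2 (1.74 to 3.66, log2 fold change 1.93), DLX2 (1.82 to 3.32, 1.50) and HES1 (4.42 to 5.90, 1.48). The list's median was -0.15, and by adjusted p-value 4 of the 7 were lower.

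Of 41 other ligands, binders and activators, 14 were tested and 8 (57.1%) were differentially expressed, 1 higher and 7 lower. With 1 library left out this count was 6 to 8. The largest falls were those of ITGB8, an integrin subunit that activates latent TGF-β (log2 fold change -3.42), FBN1, the fibrillin of the microfibrils to which LTBPs bind (-3.23), and TLL2, a protease of the BMP1 family (-2.18). BMPER, a secreted modulator of BMPs, rose by 1.43. Of 31 other receptors, co-receptors and cytoplasmic regulators, 24 were tested and 1 (4.17%) was differentially expressed, the BMP co-receptor RGMB, with a rise of 1.34. Both groups were read against the background of 23.6%.

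Of the 47 tested members, 21 (44.7%) had their highest mean in P15, beside 43.5% of all tested genes, and 10 (21.3%) in P3, beside 20.1%. By role, the share differentially expressed between P0 and P15 was 4 of 7 for the TGF-β ligands and latent binding proteins, 3 of 6 for the activin and GDF group, 4 of 5 for the BMP ligands with BMP1, 1 of 9 for the receptors, 2 of 3 for the co-receptors, 1 of 8 for the SMADs, 0 of 5 for the ligases and co-repressors and 2 of 3 for the ID genes, with 1 of 1 for the BMP antagonists, beside 23.6% of all tested genes. For the ligases and co-repressors, 4 of 5 passed the adjusted p-value from limma alone, where 86.2% of all tested genes did. BMP6 and BMP8B among the BMP ligands and BMPR1B among the receptors, counted here, passed the filter only through P15. No test of a difference between roles was made.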

How the data were processed

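RNA was sequenced from T24 cells and the GRC1 line on an Illumina platform, 4 libraries per phase. Per the labels, the authors aligned reads with STAR 2.6.1a to GRCh38, and the methods name featureCounts for counting reads on genes. The annotation release, the strand setting and the treatment of reads that fit several genes are not given in the sources used here. The deposited table gives log2(CPM + 1) with 2 decimals, as the authors computed it, for 39007 symbols. Among them are 27 dates and 2 repeated names. Quantile normalization and median centring, named in the methods, are not seen in these values, which were used as deposited.

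Differences between phases were tested in limma 3.58.1 under R 4.3.3 (lmFit, contrasts.fit and eBayes with a variance trend, all 16 libraries, no covariate) on the 13249 genes that averaged more than 1 CPM, and p-values were adjusted by the Benjamini-Hochberg method. Differential expression meant an adjusted p below 0.05 and a log2 change of at least 1. The procedure was tested on simulated data. Tables and figures were made in Python 3.11.15 with numpy 2.4.6, pandas 2.3.3 and matplotlib 3.10.9. Library depth was inferred from the steps between the lowest nonzero values. Coordinates and exon lengths come from GENCODE on GRCh38, and promoters from RefSeq on GRCh38.p14. Protein sequences were not used here.

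Library values are given for members differentially expressed in at least 1 comparison and for TGFB1, TGFB3, NOG and SMAD9, which the study names. Of each other list, the differentially expressed genes with the 3 largest rises and the 3 largest falls from P0 to P15 are named, except that 1 response gene and 1 marker are not reported here by name, although the counts and sums of their lists include them. The members and lists were chosen with earlier results of these data known. Replicates are numbered as in the sample descriptions, whose number is not that of the title in 14 of 16 libraries, and each numbering was tried as a block. The alternatives were pseudocounts of 0.1 and 5, no filter, 1 CPM in all libraries, quantile normalization, the same median in every library, no variance trend, only the 2 phases compared, no fold limit, the treat test of limma, and leaving out 1 library at a time.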

Additional observations from a re-analysis of the deposited data

Results flagged for a closer look

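Among 206 groups of 4 libraries of 1 member in 1 phase, 10 held a library whose gap to the nearest of the other 3, as a share of the group's range, exceeded Dixon's critical value at the 95% level. For unrounded normal values chance flags about 1 in 20 groups, which gives 10. The values here have 2 decimals and cannot fall below 0, and ties make a share of 1.00 easier to reach. The expected number is therefore a rough guide, and its match with the number found decides nothing. The values are log2(CPM + 1). In P7, replicate 3 was high for INHBA at 7.94, with the others at 7.89 (share 1.00), low for SMAD3 at 7.66, with the others at 7.69 (share 1.00), and low for TGIF1 at 5.64, with the others from 5.92 to 5.94 (share 0.93). Also in P7, replicate 4 was high for LTBP2 at 7.23, with the others from 7.15 to 7.16 (share 0.88), and replicate 1 was high for CHRD at 0.34, with the others at 0 (share 1.00). In P0, replicate 2 was high for ENG at 7.08, with the others from 7.02 to 7.03 (share 0.83), and replicate 3 was high for CHRD at 0.08, with the others at 0 (share 1.00). In P15, replicate 3 was low for INHBB at 0.00, with the others from 0.06 to 0.07 (share 0.86), and replicate 2 was high for GREM1 at 0.07, with the others at 0 (share 1.00). In P3, replicate 4 was high for BMP7 at 0.16, with the others at 0 (share 1.00). The values came from 8 libraries, at most 3 from 1 library. In INHBA, SMAD3, LTBP2 and ENG the gap is below 0.1 on the log2 scale, and in CHRD, GREM1, INHBB and BMP7 the values lie near the limit of detection.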

How the results depend on the processing

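The 52 differential expression calls of members were recomputed 921 times under the alternatives: 902 kept the call, 19, of 14 calls, lost it and 0 changed sign. This tally leaves out the treat test, no fold limit and libraries left out of phases not compared. It also leaves out members that a setting no longer tested, so calls lost in these ways are not among the 19. Of these 19, most fell with a pseudocount of 5, which shrinks changes of low genes by construction (BAMBI in P3 and P7 against P0 among them). NOG in P15 against P0 (1.01) was 0.99 with the same median in every library, ID2 in P7 against P3 was 0.99 with quantile normalization, and TGFB2 in P7 against P3 was -1.0 without replicate 2 of P3. For the counts of members, no fold limit gave 38 (P3 against P0), 33 (P7 against P0), 42 (P15 against P0), 35 (P7 against P3) and 44 (P15 against P7), as fewer conditions apply. Of all 13249 tested genes, 9100, 8231, 11423, 7713 and 11452 passed in the same order, so most genes did. It gave 20 SMAD2/3 response genes, 7 BMP response genes and 22 other receptors and regulators. A pseudocount of 0.1 gave 7 members in P7 against P0, and a pseudocount of 5 gave 4 in P7 against P3 and 4 other ligands and binders. Of all 13249 tested genes, 711 were called in P7 against P0 with the former and 106 in P7 against P3 with the latter. With 1 CPM in all 16 libraries the counts were 11 in P15 against P0, 10 in P15 against P7 and 4 other ligands and binders, since fewer genes were tested. Of the 11523 genes then tested, 2124 were called in P15 against P0 and 2344 in P15 against P7. The treat test gave 7 members (P3 against P0), 2 (P7 against P0), 16 (P15 against P0), 4 (P7 against P3) and 14 (P15 against P7). Among all 13249 tested genes it gave 357, 251, 2442, 114 and 2686 in the same order. Leaving out 1 library gave 8 to 9 members (P3 against P0), 3 to 5 (P7 against P0, 5 without replicate 2 of P0), 17 to 18 (P15 against P0), 6 to 7 (P7 against P3) and 16 (P15 against P7). Among all 13249 tested genes the calls were then 591 to 614, 447 to 460, 3102 to 3138, 239 to 248 and 3352 to 3380.

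A replicate block in the model gave 8, 3, 18, 7 and 16 members in the same 5 comparisons, equal to the counts without it, and a block on the title number gave the same. Deviations of same-numbered libraries correlated at -0.15 to 0.22 (replicate number) and -0.12 to 0.22 (title number), and 4 and 5 of 16 libraries were closest to their own number. No pairing by number was detected, which does not exclude a weak one. Members that averaged below 1 CPM rest on few counts before P15, and GREM1 does so in every phase.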
